A study of Mus musculus with 2 samples.

Results

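The transcripts of 7 genes read as signs of bone morphogenetic protein (BMP) signalling, Id1, Id2, Id3, Smad6, Smad7, Bambi and Bmp3, were followed in single cells of mouse intestinal organoids. They were chosen by name, and all 7 were found by matching gene symbols to the Ensembl identifiers of the 15745 genes in the count table. Organoids are epithelial cultures that grow from intestinal cells and form crypt-like buds. They came from wild type C57BL/6 mice aged 10 weeks, and 1 droplet-based 3-prime library was made at day 3 and 1 at day 5. Throughout, the medium held 100 ng/ml of Noggin, a secreted protein that binds BMPs and keeps them from their receptors, with 100 ng/ml of EGF and 500 ng/ml of R-Spondin. Up to day 3 it also held 20% Wnt3a-conditioned medium and 10 µM of Y-27632, an inhibitor of the kinase ROCK, and up to day 1 it held 3 µM of CHIR99021, an inhibitor of the kinase GSK3B. From day 3 to day 5 only EGF, Noggin and R-Spondin were given, so the day and the medium differ together. No sample without Noggin or with added BMP was analysed here.

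BMPs bind pairs of serine/threonine kinase receptors, which phosphorylate SMAD1, SMAD5 and SMAD9. These enter the nucleus with SMAD4 and raise early targets. Among the targets are the Id genes, whose helix-loop-helix proteins lack a DNA-binding region and hold E proteins and their partners inactive. The pathway also raises its own brakes: SMAD6 and SMAD7 block the receptors from within, and BAMBI is a receptor-like protein without a kinase. BMP3 is a secreted member of the family that acts against other BMPs in several settings. In the intestine BMP activity is low at the crypt base, where antagonists are made, and high along the villus, where it restrains stem cells and shapes mature enterocytes. Id genes also respond to other signals.

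SMAD complexes bind GC-rich sites such as GGCGCC and the palindrome GTCTAGAC. Both were looked for in the RefSeq promoter windows at hand for 3 of the 7 genes (Id2, Id3 and Smad6, build GRCm38.p6, from 250 bases before to 50 after the start). Id1, Smad7, Bambi and Bmp3 were not searched. The 30 bases around each match are shown because these 2 genes hold the letters by which such factors are recognised, with the motif in capitals.
Id2: tcaggccccctgGGCGCCcagcgcacactg
Smad6: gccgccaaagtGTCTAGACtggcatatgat
The Id2 stretch lies at chr12:25096306-25096335 on the minus strand, and its motif begins at position -231 from the RefSeq start of that window. The gene span given below for Id2 begins further upstream, so the stretch lies inside that span. The Smad6 stretch lies at chr9:64022045-64022074 on the minus strand, and its motif begins at position -4 and so crosses the start. Of 32851 promoter windows, 11.9% held GGCGCC and 0.213% held GTCTAGAC. Both motifs read the same on either strand. The Id3 window held neither. A match is a description of letters and not of binding, which these data do not measure.

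Both libraries were epithelial. Epcam, the general epithelial adhesion gene, was found in 100% of cells at both days. Of the immune markers 4 of 8 listed were among the genes counted, and of the stromal and endothelial ones 2 of 9. Those present summed to at most 1.74 CPM per list, that is UMIs scaled to a library of 1000000. A UMI is the tag that marks one captured transcript. At day 3 798 cells gave 28764033 UMIs, a median of 32063.5 per cell, and at day 5 1065 cells gave 17349076, a median of 13549. The cell names are numbers rather than barcodes, and 0 of them occur in both libraries. Since each day has 1 library there is no test between days, and every interval below is an exact Poisson or binomial 95% interval that covers counting error only. A gene counted as higher or lower at day 5 when its CPM differed by at least 1.5-fold and the intervals of both libraries did not overlap. By that rule 12.3% of the 12782 genes with at least 10 UMIs were higher and 31.5% were lower.

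Between the days the 7 genes did not move together. The 3 Id genes were lower at day 5, Bmp3 was about 10-fold higher, and the feedback inhibitors Smad6, Smad7 and Bambi counted as neither. All 7 had at least 10 UMIs over both libraries. Lower genes thus made up 3 of 7 and higher genes 1 of 7, beside the 31.5% and 12.3% of all genes. The median log2 ratio of day 5 over day 3 was -0.88 for the 7 genes and -0.33 for all genes tested. Scaling with TMM factors, which assume that most genes are level, shifts every ratio up by 0.313 and leaves these 4 calls in place, beside 18.8% of genes higher and 17.1% lower. With a 2-fold rule 1 of the 7 was higher and 2 were lower, beside 8.3% and 15.3% of genes, and Id2 was no longer called.

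**Figure D1:**
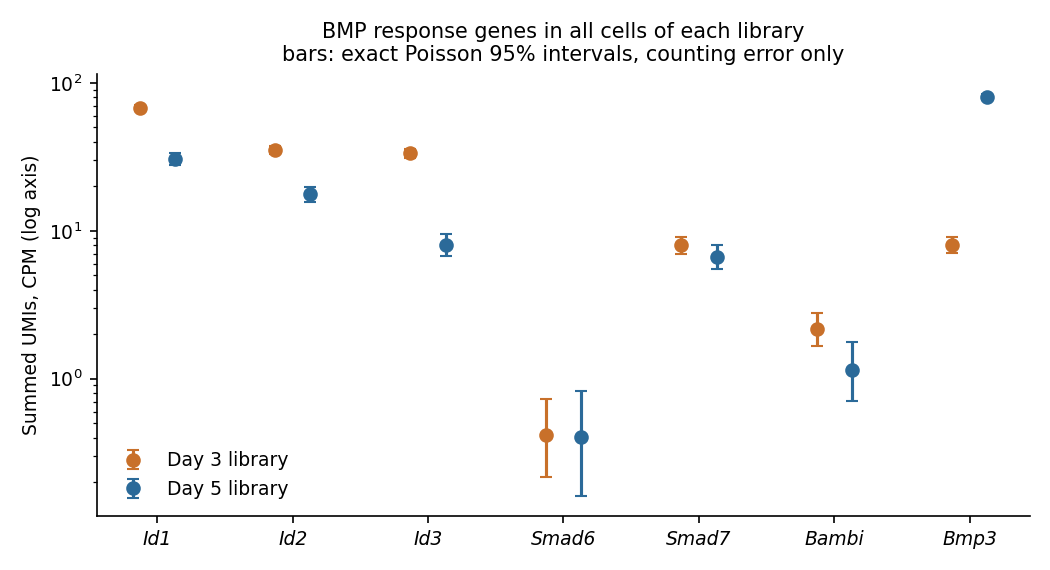
Level of each gene in all cells of the day 3 and day 5 libraries, in CPM on a log axis, with exact Poisson 95% intervals for counting error. Id1, Id2 and Id3 lie lower at day 5, Bmp3 rises from 8.03 to 80.2 CPM, and the intervals of Smad6, Smad7 and Bambi overlap between the days.

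Id1 (ENSMUSG00000042745, chromosome 2 from 152736251 to 152737410 on GRCm38) was the most abundant Id transcript per UMI. Its CPM was 68.0 (interval 65.0 to 71.0) in the day 3 library against 30.6 (28.1 to 33.3) in the day 5 library, which gives a log2 ratio of -1.15. Of all genes tested, 13.7% had a lower ratio. Id2 (ENSMUSG00000020644, chromosome 12 from 25093799 to 25097140) had a CPM of 35.2 (33.1 to 37.5) on the former day against 17.7 (15.8 to 19.8) on the latter, and its log2 ratio of -0.99 falls short of 2-fold. Id3 (ENSMUSG00000007872, chromosome 4 from 136143497 to 136145755) fell furthest of the 3. From a CPM of 33.4 (31.3 to 35.6) it went down to 8.01 (6.74 to 9.46), and 3.65% of genes undercut its log2 ratio of -2.05. Day 3 thus held 4.153 times as much Id3 per UMI as day 5, and 1.99 times as much Id2.

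Bmp3 (ENSMUSG00000029335, chromosome 5 from 98854415 to 98884396), the ligand-like member, went the other way. From a CPM of 8.03 (7.03 to 9.14) it went up to 80.2 (76.1 to 84.6), so that the log2 ratio was 3.32 with an exact interval of 3.12 to 3.53. Of the 12782 genes tested, 219 had a higher ratio, or 1.71%. Its 1392 UMIs at day 5 were spread over 692 cells, and the 10 cells with the most held 5.39% of them.

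The inhibitors were scarce. Smad7 (ENSMUSG00000025880, chromosome 18 from 75367529 to 75395935) had a CPM of 7.996 (6.996 to 9.10) against 6.69 (5.52 to 8.02), and its log2 ratio changed sign with the scaling, from -0.26 to 0.06 under TMM. Bambi (ENSMUSG00000024232, chromosome 18 from 3507923 to 3516404) had 62 and 20 UMIs. Its intervals overlap, at a CPM of 2.16 (1.65 to 2.76) against 1.15 (0.704 to 1.78), so it was not called, although the exact interval of its log2 ratio of -0.88 runs from -1.71 to -0.16 and leaves out 0. Smad6 (ENSMUSG00000036867, chromosome 9 from 63953076 to 64022059) had 12 and 7 UMIs, or 0.417 and 0.403 CPM. Its log2 ratio is -0.01, or 0.31 under TMM, and a difference was not detectable at this depth. All 7 genes are annotated as protein-coding.

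The share of cells with a transcript moved in the same directions for the Id genes and Bmp3. For this 9800 UMIs were drawn at random from each cell, which left out 0 cells at day 3 and 183 at day 5. Of these 183, 116 came from Enterocyte-like cluster 8 and 40 from Enterocyte-like cluster 9, both described below. An Id1 UMI was then found in 42.6% of day 3 cells (39.1 to 46.1) and 22.4% of day 5 cells (19.7 to 25.3). Id3 was found in 24.7% (21.7 to 27.8) and 7.03% (5.43 to 8.92), and Id2 in 22.9% (20.1 to 26.01) and 14.7% (12.5 to 17.3). Bmp3 went from 8.52% (6.68 to 10.7) to 53.1% (49.7 to 56.4). Without thinning the shares were 74.2% and 28.7% for Id1, 50.1% and 20.6% for Id2, 51.1% and 9.77% for Id3, and 22.4% and 65.0% for Bmp3. Free RNA adds UMIs to cells that do not make a transcript. As a guide, Defa24, a defensin gene of Paneth cells, was at 40288 CPM in the mixed secretory cells of day 5 described next and at 131 CPM outside secretory and endocrine clusters, where 69.9% of cells still held a UMI of it.

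Cells of both libraries were clustered together with the 7 genes left out of the clustering genes, which gave 12 clusters, and groups of at least 20 cells of 1 day were described. Day 3 cells lay in 6 such groups. These were a Regenerating-like cluster led by Msln and Anxa1 (cluster 1, 126 cells), a cluster led by the S phase genes Ccne2 and Cdc6 (cluster 2, 178 cells) and a Proliferating-like cluster (cluster 3, 154 cells). The others were a Stem-like cluster led by Rgcc and Ascl2 (cluster 5, 100 cells), mixed secretory cells (cluster 6, 47 cells) and a cluster led by 2610528A11Rik, Adm2, Ero1l and Ankrd37 (cluster 7, 182 cells). Day 5 cells also lay in 6 groups. They were 40 mixed secretory cells, 2 Enterocyte-like clusters (cluster 8 with 222 cells and cluster 9 with 280), a cluster led by Edn2 and Depp1 (cluster 10, 135 cells), one led by Sycn and Ttr (cluster 11, 180 cells) and one led by Mxd3 and Neil3 (cluster 12, 191 cells). All but the mixed secretory cells came almost wholly from 1 library, so state and library largely coincide.

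**Figure D2:**
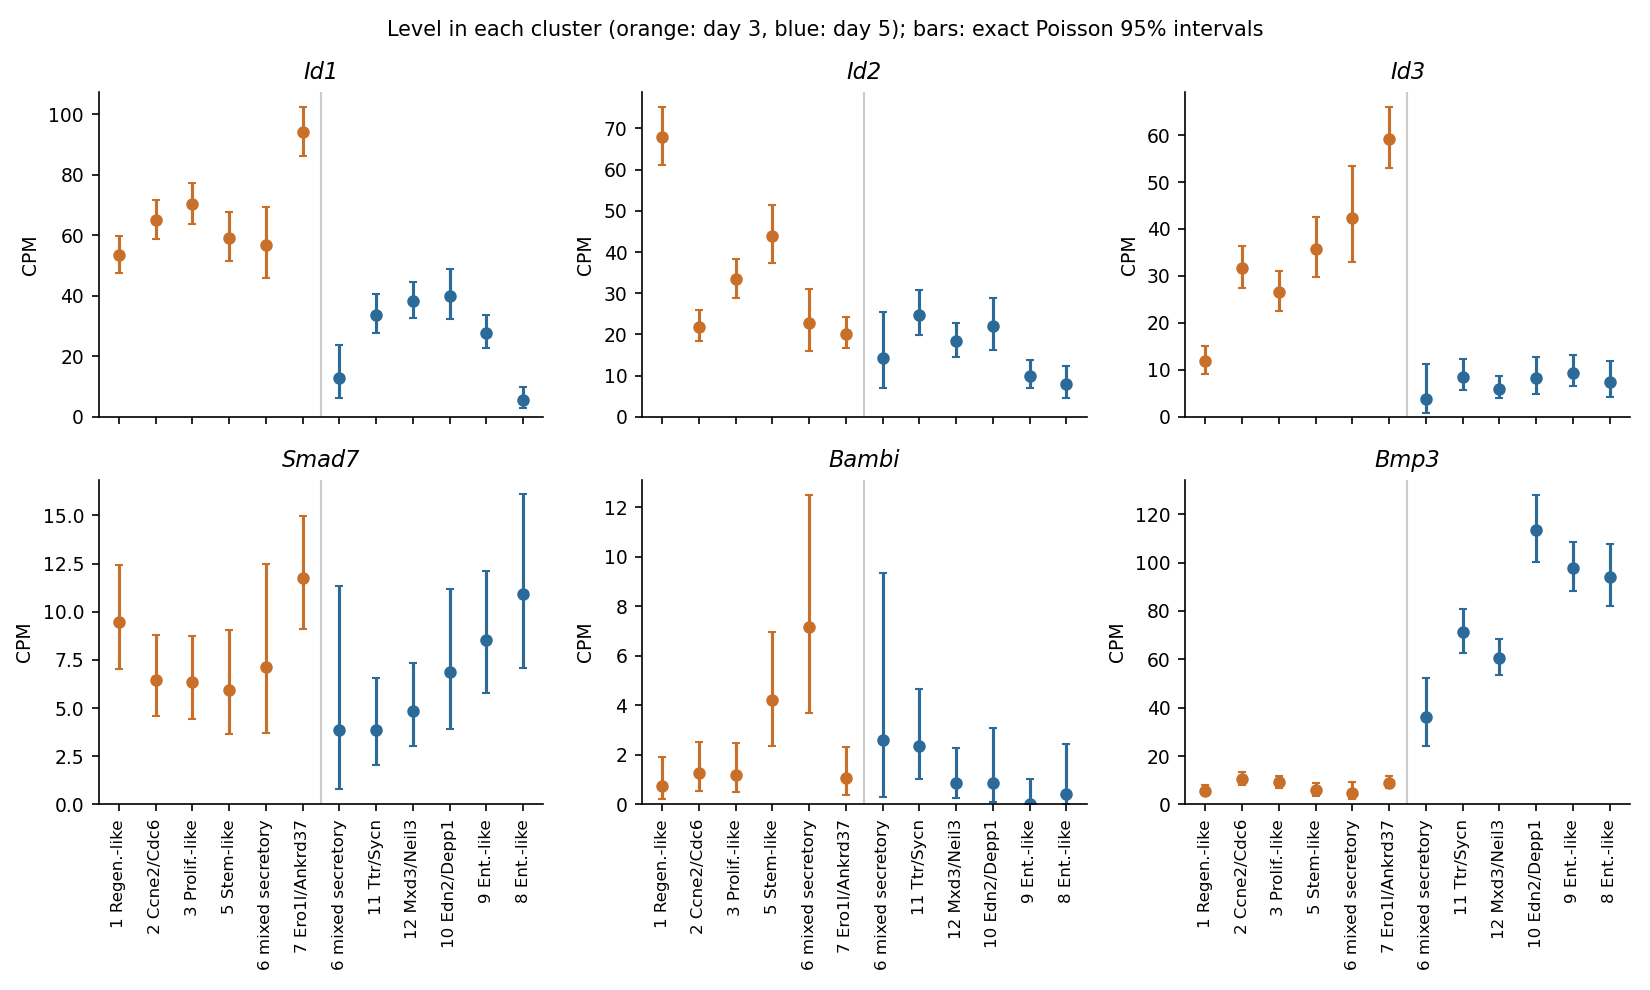
CPM of 6 of the genes in each group of at least 20 cells, day 3 in orange and day 5 in blue, with exact Poisson 95% intervals. At day 3 Id2 peaks in the Regenerating-like cluster, where Id3 is lowest, and Bmp3 lies higher in every day 5 group than in any day 3 group.

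At day 3 the Id genes had different peaks. Id2 was highest in the Regenerating-like cluster at 68.0 CPM (61.2 to 75.3), followed by the Stem-like cluster at 43.96 CPM (37.3 to 51.4), and lowest in cluster 7 at 20.1 CPM (16.6 to 24.2). One cell held 53 of the 367 Id2 UMIs of the Regenerating-like cluster. Without it, a check added after the data were seen, the level was 59.5 CPM and still the highest.

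Id3 had the opposite extremes. It was lowest in the Regenerating-like cluster at 11.9 CPM (9.13 to 15.1) and highest in cluster 7 at 59.2 CPM (53.0 to 65.9), a 4.99-fold range. Between them lay cluster 3 at 26.5 CPM, cluster 2 at 31.7 CPM, the Stem-like cluster at 35.8 CPM and the mixed secretory cells at 42.3 CPM. Id1 varied least of the 3, from 53.3 CPM (47.4 to 59.9) in the Regenerating-like cluster to 94.0 CPM (86.1 to 102) in cluster 7. For each Id gene 4 of the 5 pairs of neighbours in the order of its levels had overlapping intervals.

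Among the remaining genes at day 3, Bambi was highest in the mixed secretory cells, at 7.16 CPM (3.70 to 12.5) from 12 UMIs, and in the Stem-like cluster, at 4.23 CPM (2.37 to 6.97) from 15 UMIs. In the Regenerating-like cluster it was at 0.741 CPM (0.202 to 1.90). Smad7 ranged from 5.92 CPM (3.66 to 9.05) in the Stem-like cluster to 11.8 CPM (9.10 to 15.0) in cluster 7. Bmp3 ranged from 4.77 CPM (2.06 to 9.40) in the mixed secretory cells to 10.6 CPM (8.22 to 13.5) in cluster 2, and the latter stood apart from the Regenerating-like cluster at 5.74 CPM (3.90 to 8.15). With each library clustered alone the lowest Bmp3 level was 1.95 CPM (0.531 to 4.99) in a Regenerating-like cluster. Smad6 ranged from 0.282 to 0.713 CPM, with overlapping intervals.

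At day 5 Id1 and Id2 were lowest in Enterocyte-like cluster 8. This cluster, with the higher enterocyte marker level of the 2, had Id1 at 5.67 CPM (3.02 to 9.70) and Id2 at 7.85 CPM (4.65 to 12.4). Mixed secretory cells came next for Id1, at 12.9 CPM (6.21 to 23.8), an interval that overlaps that of cluster 8. Enterocyte-like cluster 9 had Id1 at 27.8 CPM (22.6 to 33.8) and Id2 at 9.91 CPM (6.94 to 13.7). The highest Id1 level was 39.98 CPM (32.3 to 49.0) in the Edn2 and Depp1 cluster, 7.05 times that of cluster 8, and the highest Id2 level was 24.8 CPM (19.8 to 30.7) in cluster 11. Cluster 8 also held the most mitochondrial UMIs, 10.53% against 5.05% to 7.44% in the other day 5 groups, and the fewest UMIs per cell, with a median of 9658. The part of either in the low Id level was not tested.

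Id3 was low throughout day 5, from 3.88 CPM (3 UMIs) in the mixed secretory cells to 9.36 CPM (6.48 to 13.1) in cluster 9, and no group stood apart from another. Smad7 was higher in Enterocyte-like cluster 8, at 10.9 CPM (7.06 to 16.1), than in cluster 11, at 3.84 CPM (2.04 to 6.56). In the other clusterings tried, the highest and lowest Smad7 levels of day 5 had overlapping intervals. Bambi had 8 or fewer UMIs in any group and 0 in cluster 9. Smad6 had 0 to 3 UMIs in every group.

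Bmp3 was raised in all 6 day 5 groups. The lowest, 36.2 CPM (24.1 to 52.4) in the mixed secretory cells, lay above the highest of day 3, 10.6 CPM (8.22 to 13.5) in cluster 2. It reached 60.6 CPM (53.6 to 68.2) in cluster 12, the group with the highest summed level of proliferation markers at day 5, and 71.2 CPM (62.5 to 80.7) in cluster 11, that with the highest of stem markers. Levels were 94.2 CPM (82.1 to 108) and 98.0 CPM (88.1 to 109) in the Enterocyte-like clusters and 113 CPM (100.2 to 128) in the Edn2 and Depp1 cluster. These 3 intervals overlap. Bmp3 is among the 10 leading genes of the Edn2 and Depp1 cluster by fold, which was taken over all other cells of both libraries. With each library clustered alone, the 10 leading genes of the day 5 cluster led by Edn2 did not include Bmp3. At equal depth a Bmp3 UMI was found in 63.6% of the cells of cluster 10 and, at the low end, in 32.4% of the mixed secretory cells.

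The days were next compared within narrower sets of cells. Without the Enterocyte-like clusters, Id1 had a log2 ratio of -0.90, Id2 of -0.67, Id3 of -2.11 and Bmp3 of 3.15, all still called. Smad7 then counted as lower too, at 7.98 CPM against 5.25 CPM (-0.59). In that comparison 4 of the 7 genes were lower and 1 higher, beside 24.2% and 8.87% of genes, and the median was -0.59. The set still held the Edn2 and Depp1 cluster, which had the highest Bmp3 level. The enterocyte markers of that cluster summed to 12971 CPM, against 658 to 3008 CPM in the day 3 groups. In a clustering at resolution 0.5, a cluster led by Edn2 was named Enterocyte-like. Cells with high enterocyte markers were thus not all removed.

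Mixed secretory cells, the one named class with at least 20 cells of each day, showed the same split. The make-up of the class differed between the days, with summed enterocyte markers at 841 and 4091 CPM, proliferation markers at 5586 and 2737 CPM and Defa24 at 6329 and 40288 CPM, and the part of this in the ratios was not tested. Id1 was at 56.7 and 12.9 CPM, with 95 and 10 UMIs. Id3 was at 42.3 and 3.88 CPM, with 71 and 3 UMIs. Bmp3 was at 4.77 and 36.2 CPM, with 8 and 28 UMIs. Here 2 of 7 genes were lower and 1 higher, beside 11.1% and 3.92% of all genes with at least 10 UMIs in these cells. Smad6, with 1 UMI at each day, fell short of that minimum. Id2, at 22.7 and 14.2 CPM, counted as neither.

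When each library was clustered alone, Stem-like, Proliferating-like and Enterocyte-like clusters appeared at both days, though as different clusters. Among Stem-like cells, 112 at day 3 and 142 at day 5, Id1 was at 58.6 and 26.3 CPM, Id2 at 38.2 and 20.1 CPM and Id3 at 36.7 and 6.95 CPM. All 3 counted as lower, and Bmp3 as higher at 5.28 and 70.7 CPM, in a class where 17.5% of genes were lower and 7.93% higher. Among Proliferating-like cells, 123 and 245 of them, Id1 was at 65.2 and 41.8 CPM, Id3 at 25.5 and 7.50 CPM and Bmp3 at 9.26 and 62.1 CPM, and these 3 were called, beside 17.6% of genes lower and 7.62% higher. The day 5 class takes in a cluster led by S phase genes, whose like at day 3 stayed unnamed. Among Enterocyte-like cells, 61 and 179 of them, Id1 was at 67.6 and 16.5 CPM, Id3 at 67.6 and 8.92 CPM and Bmp3 at 6.09 and 90.5 CPM, again called, beside 19.6% lower and 8.63% higher. A day 5 cluster of 198 cells led by Ggt1 and Slc5a4b stayed unnamed and so lies outside this class, with Id1 at 5.58 CPM (2.78 to 9.98) and Bmp3 at 98.9 CPM (85.5 to 114). Id2 counted as lower in the Stem-like class and as neither in these other 2 classes.

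**Figure D3:**
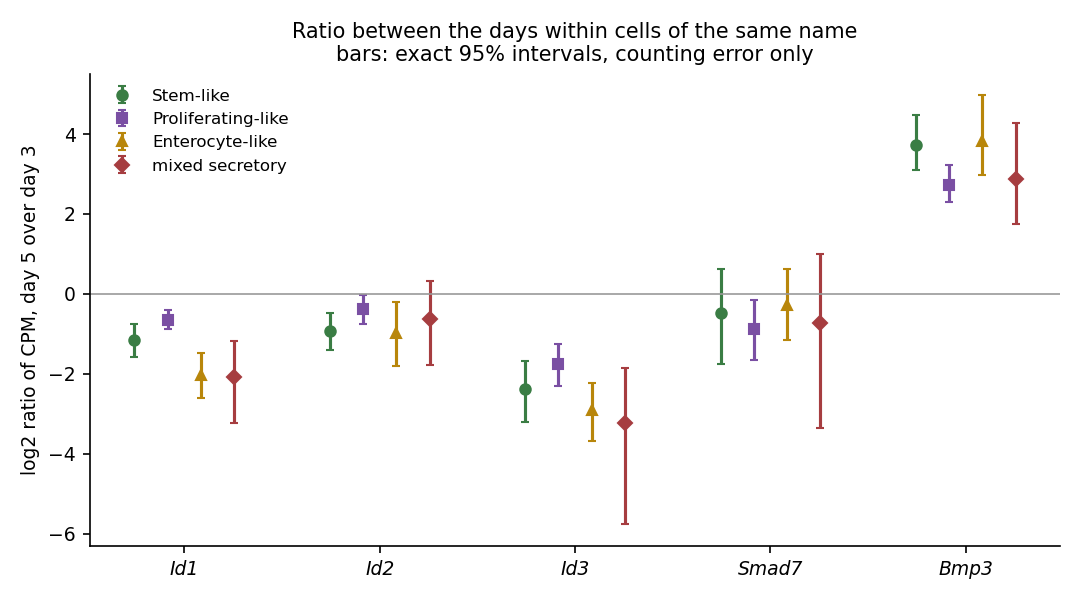
The log2 ratio of CPM at day 5 over day 3 within cells of the same name, for 5 of the genes, with exact 95% intervals for counting error. A shared name does not mean an equal marker level at both days. Id3 lies between -3.23 and -1.76 and Bmp3 between 2.73 and 3.83 in the 4 classes, and 3 of the 4 Smad7 intervals cross 0.

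Along the level of enterocyte markers Id1 and Id3 rose at day 3, while Id2 was lowest at the top of the range at both days. Cells of each library were put into 4 equal bins of their summed level of 15 enterocyte markers, which are ranges of a score and not cell types. The median score ran from 489 CPM in the lowest bin to 2071 CPM in the highest at day 3. At day 5 it ran from 1643 to 52181 CPM. Bins of the same rank thus hold unlike scores, and the courses at the 2 days cannot be compared bin by bin. At day 3, from the lowest to the highest bin, Id3 went from 25.1 CPM (21.7 to 28.7) to 52.2 CPM (46.6 to 58.3) and Id1 from 60.0 CPM (54.8 to 65.5) to 90.9 CPM (83.4 to 98.8). Id2 went from 53.6 CPM (48.7 to 58.9) down to 20.3 CPM (16.9 to 24.3). At day 5 Id1 was at 29.4, 44.2, 28.9 and 11.4 CPM over the 4 bins, so that its highest value lay in the second bin and its lowest in the last. Id2 was at 21.3, 23.8, 12.2 and 6.04 CPM, while Id3 stayed between 5.94 and 11.1 CPM. Bmp3 was at 57.0 CPM in the lowest bin, 88.4 and 105 CPM in the middle ones and 85.2 CPM in the highest.

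The bins differ in depth, with median UMIs per cell falling from 36559.5 to 27673 at day 3 and from 20165 to 10236 at day 5. At the bin borders, 64 to 123 cells of day 3 and 40 to 87 of day 5 had a level within 10% of the border.

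Along the level of 12 markers of regenerating epithelium at day 3, Id2 increased over the bins, from 18.9 CPM (15.9 to 22.3) through 27.8 and 33.2 to 58.9 CPM (53.6 to 64.5). Id3 was at 31.7, 40.1 and 44.7 CPM in the first 3 bins and at 19.4 CPM (16.5 to 22.8) in the highest. Bambi in the highest bin was at 0.894 CPM (0.360 to 1.84) from 7 UMIs, against 2.29 to 3.03 CPM in the others. At day 5 the median level of these markers was 0 in both the first and the second bin, so that border does not part cells. In the highest bin Id2 was at 24.9 CPM (20.5 to 29.9), against 15.3 CPM (11.7 to 19.5) in the lowest. Bmp3 in the highest bin was at 72.5 CPM (64.9 to 80.8), against 97.0 CPM (87.7 to 107) in the lowest. In the second bin Id2 was at 14.5 CPM (11.1 to 18.6) and Bmp3 at 81.5 CPM (73.1 to 90.6). That Bmp3 interval overlaps the one of the highest bin, so Bmp3 stood apart from only part of the cells with a level of 0. The intervals of Id1 and Id3 overlapped between the lowest and the highest bin.

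**Figure D4:**
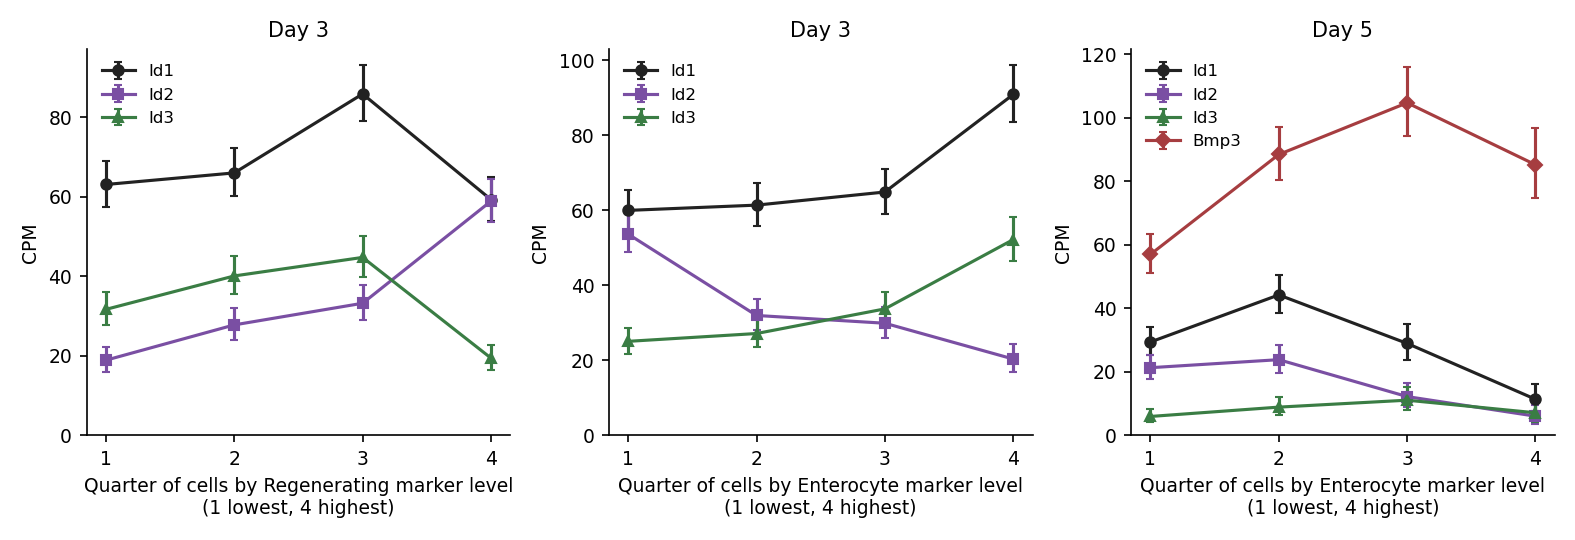
CPM of the Id genes, and of Bmp3 at day 5, in 4 equal bins of cells by summed marker level, with exact Poisson 95% intervals. At day 3 Id2 and Id3 cross along both marker levels, and at day 5 Id1 and Id2 are lowest in the bin with the most enterocyte markers.

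The Id genes were also more uneven from cell to cell than most genes of like abundance. At equal depth the variance over the mean of Id1 was 1.77 at day 3 and 1.75 at day 5, against medians of 1.08 and 1.06 for 748 and 1061 genes of similar mean. Id1 exceeded 96.4% and 96.6% of those genes, Id3 95.2% and 95.6%, and Id2 95.4% and 93.7%. Smad7 lay at 0.990 and 1.004, and a Poisson count has the value 1. For Bmp3 at day 5 the value was 1.21, above 67.8% of 580 genes. Bambi at day 3 was as uneven as the Id genes, at 1.53 and above 95.4% of 561 genes, from 14 cells with a UMI at this depth.

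Within single cells the genes were loosely tied. Over 798 day 3 cells at equal depth, Pearson's r was 0.17 for Id1 with Id3, 0.03 for Id1 with Id2 and 0.03 for Id2 with Id3. Over 882 day 5 cells it was 0.09, 0.08 and -0.05. Counts this sparse make such values no finding, and the cells share library, depth and free RNA. At day 3 an Id3 UMI was found in 30.3% of cells with an Id1 UMI (25.5 to 35.5) and in 20.5% of cells without one (16.9 to 24.5).

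Over the 12 groups of cells, 6 from each library, the genes with the pattern most like that of Id1 were Eif2a (Pearson's r of log2(CPM + 1) 0.96), Zfp386 and Cdpf1 (0.95 each). For Id2 they were Bloc1s2, Klhl42 and Scmh1 (0.93, 0.93 and 0.92). For Id3 they were Ldha and Tpi1, genes of glycolytic enzymes, and Nsdhl, a gene of cholesterol synthesis (0.95, 0.94 and 0.94). For Smad7 they were Sh3glb1, Stk17b and Clta (0.96, 0.95 and 0.94), and for Bmp3 Irf2, Epb41l4aos and Syce3 (0.99, 0.98 and 0.97). They are the highest of 8568 genes compared. Between members, r was 0.74 for Id1 with Id3, 0.68 for Id1 with Id2 and 0.38 for Id2 with Id3, and -0.66 to -0.78 for Bmp3 with each Id gene. The groups share 2 libraries, so the difference between days enters every value.

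The rest of the pathway was described from lists of its parts, each with 3 to 6 measured genes or 7 for the intracellular regulators. Their counts are to be read beside the 12.3% of all genes that were higher and the 31.5% that were lower. Among ligand genes, 5 of 11 listed had at least 10 UMIs, of which 1 was higher and 2 were lower. Bmp2 was higher at day 5, with a CPM of 3.44 (2.80 to 4.19) against 11.2 (9.66 to 12.9) and thus a log2 ratio of 1.70. Its highest level was 26.6 CPM (20.4 to 34.2) in Enterocyte-like cluster 8, where Id1 was lowest. Bmp7 was lower, at 7.79 and 3.46 CPM (-1.16), and at day 3 it was highest in mixed secretory cells at 20.3 CPM (14.0 to 28.3) and Stem-like cells at 15.2 CPM (11.4 to 19.9). Bmp8b was lower as well, at 11.99 and 1.33 CPM (-3.15), and stood at 35.9 CPM (31.1 to 41.4) in the Regenerating-like cluster. Bmp4, a ligand made mainly by mesenchyme in the gut, had 2 UMIs and 1 UMI.

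Of 6 measured receptor genes, 2 were lower and 0 higher, a share near the 31.5% of all genes, and their median log2 ratio was -0.49 beside -0.33 for all genes. These were Bmpr1a, the main type I receptor of the epithelium, with a CPM of 42.2 (39.9 to 44.7) against 25.6 (23.3 to 28.1), and the co-receptor gene Rgmb at 12.8 and 8.53 CPM. Neither is called under TMM, where the receptor gene Acvr2b is called higher instead (0.83). None of the 3 measured SMAD transducers was called: Smad1 was at 31.2 and 32.3 CPM, Smad4 at 46.3 and 43.1 CPM and Smad5 at 13.6 and 10.1 CPM. Smad1 stayed between 28.2 and 36.5 CPM in all 12 groups of cells, while Id3 spanned 3.88 to 59.2 CPM.

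Secreted antagonists were rare, with 4 of 14 listed genes measured and none called. The most abundant was Twsg1, at 7.44 and 5.01 CPM, and the follistatin gene Fst had 11 UMIs at day 3 and 0 at day 5. The genes for Noggin, Gremlin 1 and Chordin were listed but not found by symbol among the genes counted, so their levels are not known. Of 7 intracellular regulators 1 was higher and 2 were lower, again near the shares of all genes. Under TMM 2 were higher and 1 was lower, as Ppm1a, a phosphatase gene, was then called higher (0.66). Tob1, an antiproliferative gene whose protein can bind SMADs, was higher, at 46.2 and 79.3 CPM, and reached 164 CPM (148 to 182) in Enterocyte-like cluster 8. Without the Enterocyte-like clusters it was no longer called (0.29). The ubiquitin ligase gene Smurf1 was lower (-1.02), as was the SMAD repressor gene Skil (-0.69), the latter not under TMM.

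Of 5 measured genes among others that BMP or its relatives are known to raise, 1 was higher and 2 were lower, beside 12.3% and 31.5% of all genes. Klf10 was higher, at 16.97 and 28.9 CPM, and Klf4 and Atoh8 were lower, Klf4 at 19.7 and 10.55 CPM and Atoh8 with 39 and 4 UMIs. Klf4, a factor of goblet cells, was highest per UMI in the mixed secretory cells, where its CPM was 165 (146 to 186) on the first day and 102 (81.0 to 128) on the second. Id4, the fourth Id gene, had 12 and 5 UMIs.

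Of 5 measured villus tip genes that BMP raises in enterocytes, 2 were higher and 2 lower, beside 12.3% and 31.5% of all genes. Higher were Apoa4 of lipoprotein particles (log2 ratio 6.89) and Creb3l3, which codes for a transcription factor (4.95). Without the Enterocyte-like clusters these ratios were 3.43 and 2.83. Apoa4 is itself among the enterocyte markers used to name those clusters, so its smaller ratio follows in part from that choice. Lower were the adenosine deaminase gene Ada (-1.34) and Egfr, the gene of the EGF receptor (-1.09). Nt5e, a villus tip marker, had 8 UMIs at day 3 and 0 at day 5. Ada had 0 UMIs at day 5 in the mixed secretory cells, in Enterocyte-like cluster 9 and in the Edn2 and Depp1 cluster.

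**Figure D5:**
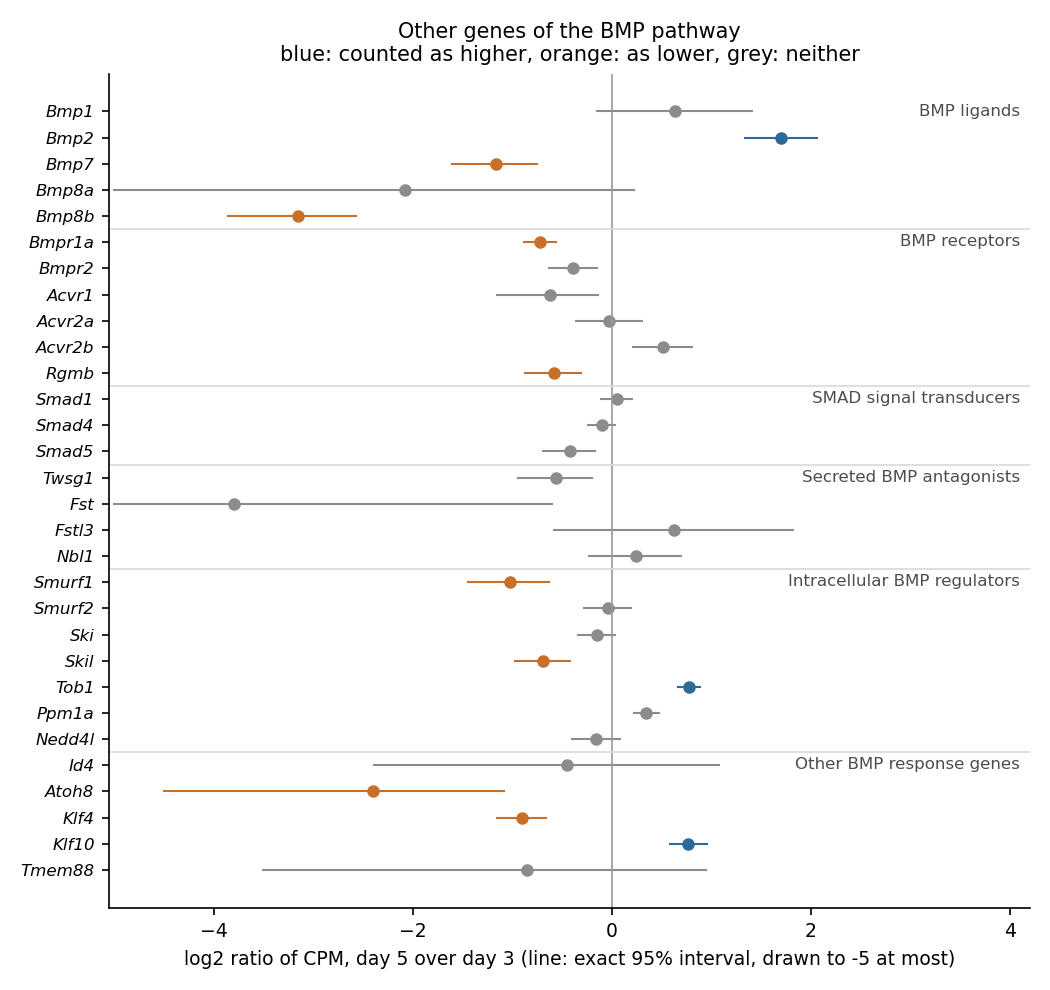
The log2 ratio of CPM at day 5 over day 3 for the genes of 6 pathway lists with at least 10 UMIs over both libraries, with exact 95% intervals. Bmp2, Tob1 and Klf10 are called higher, none of the 3 SMAD transducers is called, and Bmp8b has the lowest called ratio at -3.15.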

How the data were processed

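Single-cell 3-prime RNA libraries of day 3 and day 5 organoids, 1 each, were used. The authors deposited UMI counts per gene and cell, for which the submitters' processing notes name Cell Ranger 1.3.0 and build mm10. How genes and cells were filtered, and with which annotation, is not given in the sources used here. A deposited table of log2 values holds the log2 of the count over the cell's size factor, plus 1. It served as a check.

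Symbols came from GENCODE M21 on GRCm38 and matched 15681 of 15745 genes. Counts were summed over cells and scaled to 1000000 UMIs, and 0.5 UMI was added to each sum for log2 ratios. Clustering used scanpy 1.11.5 with 2000 variable genes without the members, 30 principal components, 15 neighbours and Leiden resolution 1. Clusters took the name of a type, with -like, if 3 or more of the 25 leading genes were its markers and it had most among the first 10. With 3 or more markers of more than 1 secretory type they were called mixed secretory. Scrublet called 0 doublets at day 3 and 8 at day 5, too few to take doublets as removed, and they were kept. TMM factors came from edgeR 4.0.16.

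The members and gene lists were chosen with earlier results of these data known. Named were the 7 members, every called gene of each pathway list or else its most and least abundant genes, and the 3 genes of most similar pattern per member with at least 100 UMIs. Bmp4, Id4, Nt5e, Smad1, Acvr2b, Ppm1a, Tcf3, Tcf4, Atoh1 and Defa24 were added after their values were seen. Figures were drawn with matplotlib 3.10.9.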

Additional observations from a re-analysis of the deposited data

How the results depend on the processing

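The direction and call of Id1, Id2, Id3 and Bmp3 held under TMM factors, without Enterocyte-like clusters, with only the 320 day 5 cells as deep as the shallowest day 3 cell, without doublet calls and without the cell with most UMIs of the gene in each library. Under TMM their log2 ratios were -0.84, -0.68, -1.74 and 3.63. With the deeper day 5 cells they were -1.004, -0.86, -1.99 and 3.09. With each cell weighed alike they were -1.31, -0.98, -2.20 and 3.40, and the differences of the means of the authors' log2 values were -0.68, -0.31, -0.51 and 1.06. With a 2-fold rule Id2 was lost and 2 of 7 genes were lower. Over all genes, 2404 counted as higher and 2182 as lower under TMM, against 1571 and 4028 with CPM, and 1959 were lower at 2-fold. The peak of Id2 in Regenerating-like cells held when each library was clustered alone, at 91.1 and 62.1 CPM in its 2 such clusters. The low Id1 level there did not, since those clusters were at 35.1 and 91.1 CPM. The highest and lowest Smad7 groups of day 5 were apart only in the main clustering. At resolution 1.5 the lowest was the mixed secretory cells, with 3 UMIs. There an Enterocyte-like cluster led by Ggt1, at 11.9 CPM (7.80 to 17.5), still lay above a cluster led by Sycn, at 4.39 CPM (2.46 to 7.24). Thinning to 6700 UMIs left out 0 cells. Bmp3 was then found in 4.51% and 41.5% of cells and Id1 in 34.0% and 15.3%. Id2 was found in 14.7% and 8.83%, and Id3 in 20.4% and 4.41%. No paired analysis was possible because each day has 1 library, and no replicate could be left out for the same reason. Depth limits Smad6 and Bambi, where 3 UMIs correspond to 0.104 CPM at day 3 and 0.173 CPM at day 5 in all cells and to far more in a single group.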

Other observations

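Of 6 measured genes of the related TGF-beta and activin branch, 2 were lower at day 5 and 0 higher, a share near the 31.5% of all genes that were lower, and 1 was lower under TMM. They had a median log2 ratio of -0.52 beside -0.33 for all genes. Tgfbr2, the type II receptor gene of TGF-beta, had a CPM of 43.2 (40.9 to 45.7) against 14.6 (12.9 to 16.6), and thus a log2 ratio of -1.56. At day 3 it stood at 97.1 CPM (88.9 to 106) in the Regenerating-like cluster, where Id2 was highest, and at 22.3 to 34.2 CPM in the other groups. Tgfb1 had 69 and 19 UMIs and was lower (-1.10), but was not called under TMM (-0.79) or without Enterocyte-like clusters.

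Of 8 E protein and partner genes, 3 were lower, beside the 31.5% of all genes. The E proteins that Id proteins hold inactive had log2 ratios nearer to 0 than the Id genes. Tcf3 was at 52.5 and 39.4 CPM and Tcf4 at 13.2 and 14.8 CPM, neither called, and Tcf12 was lower at 31.8 and 20.8 CPM (-0.61), a call lost under TMM and without Enterocyte-like clusters. Of the tissue-specific partners, the stem cell factor gene Ascl2 (-1.15) and the endocrine factor gene Neurog3 (125 and 0 UMIs) were lower, the former not without Enterocyte-like clusters, and Atoh1, the secretory factor gene, was at 3.75 and 3.11 CPM and not called.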
